A study of Mus musculus with 12 samples.

Results

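Freezing a liver before its nuclei are isolated was compared with working from fresh tissue, in hepatocyte nuclei of ad libitum fed mice. All 52530 accessible regions (peaks, of 200 bp, on mm10) of the study's merged set were used, in 6 of its 12 libraries. The 3 frozen and 3 fresh fed libraries came from 3 female HEP-INTACT mice, each of which gave a fresh and a frozen library by the sample titles. The table's columns carry letters, which match no mouse number, and libraries of the same letter were taken as a pair. These mice had food throughout and were killed when mice fasted for 16 h from ZT12 were killed. In HEP-INTACT mice the hepatocyte nuclei carry a genetic tag, so that they can be captured on beads from a nuclear preparation of whole liver (IP). The sources used here do not give the promoter that drives the tag or the age of the mice. About 25000 captured nuclei went into each reaction of ATAC-seq, in which a transposase cuts open DNA and attaches sequencing adapters. The question was how far frozen tissue gives the same accessibility map as fresh tissue. The 6 fasted libraries served only to ask whether the freezing difference itself depends on feeding.

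Open chromatin at a promoter is a stretch from which nucleosomes have been displaced by bound factors and by the transcription machinery. Housekeeping promoters are commonly bound by ubiquitous factors such as NRF1, which regulates genes for mitochondria, CREB, which answers cAMP, the E-box factors USF and MYC, NFY, which binds the CCAAT box, and ZNF143, which binds promoters and loop anchors. Hepatocyte genes are opened in addition by HNF4A, FOXA and C/EBP factors, largely at enhancers. Genes for ribosomal RNA and satellite DNA are repeated in many copies, the latter packed in heterochromatin around centromeres.

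Promoter peaks that rose and that fell in frozen liver differed in how often they held certain motifs, and 7 promoters are shown as examples of either kind. Each is the stretch of 250 bases before the gene start, written along the gene, from RefSeq on GRCm38.p6. Capitals mark the letters GCGCATGC (NRF1), TGACGTCA (the CRE bound by CREB), CACGTG (E-box), CCAAT (bound by NFY) and ACTACAA (ZNF143), each on either strand. ACTACAA is only a part of the longer ZNF143 site. None of these strings contains another. Dusp1 (chr17:26508473-26508722, minus strand), Smarca4 (chr9:21615919-21616168, plus strand) and Mdh2 (chr5:135778399-135778648, plus strand) had peaks that rose, as had Alb (chr5:90460620-90460869, plus strand), which holds 2 CCAAT boxes. Cep97 (chr16:55934849-55935098, minus strand), Mrpl42 (chr10:95501950-95502199, minus strand) and Cox7c (chr13:86046796-86047045, minus strand) had peaks that fell. The examples do not stand for all promoters. Those of Rbp4 and Pck1, with peaks that rose, and of Rad18 and Egr2, with peaks that fell, hold none of these exact strings. Variants of the strings were not searched for, so this does not show that a site is absent. That of Nr1d1 holds the ZNF143 letters outside its peak, which rose.
Dusp1: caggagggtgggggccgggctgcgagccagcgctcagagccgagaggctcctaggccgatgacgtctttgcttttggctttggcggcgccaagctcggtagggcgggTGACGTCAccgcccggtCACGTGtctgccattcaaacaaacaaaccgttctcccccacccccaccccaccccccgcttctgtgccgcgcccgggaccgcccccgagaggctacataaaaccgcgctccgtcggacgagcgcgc
Smarca4: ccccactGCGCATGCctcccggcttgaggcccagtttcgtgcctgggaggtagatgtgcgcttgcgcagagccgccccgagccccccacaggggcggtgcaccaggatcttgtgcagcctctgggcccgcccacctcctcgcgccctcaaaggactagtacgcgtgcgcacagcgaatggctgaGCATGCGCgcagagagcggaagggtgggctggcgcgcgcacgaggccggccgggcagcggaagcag
Mdh2: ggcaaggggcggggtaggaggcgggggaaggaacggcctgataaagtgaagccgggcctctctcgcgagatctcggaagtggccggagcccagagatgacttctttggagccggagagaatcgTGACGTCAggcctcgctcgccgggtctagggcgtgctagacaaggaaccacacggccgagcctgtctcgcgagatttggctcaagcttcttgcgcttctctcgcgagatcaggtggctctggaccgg
Alb: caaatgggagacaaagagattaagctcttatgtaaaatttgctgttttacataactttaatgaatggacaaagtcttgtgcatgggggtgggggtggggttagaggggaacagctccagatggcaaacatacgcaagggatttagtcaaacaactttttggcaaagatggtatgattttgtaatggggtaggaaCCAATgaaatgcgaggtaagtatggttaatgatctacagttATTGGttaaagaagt
Cep97: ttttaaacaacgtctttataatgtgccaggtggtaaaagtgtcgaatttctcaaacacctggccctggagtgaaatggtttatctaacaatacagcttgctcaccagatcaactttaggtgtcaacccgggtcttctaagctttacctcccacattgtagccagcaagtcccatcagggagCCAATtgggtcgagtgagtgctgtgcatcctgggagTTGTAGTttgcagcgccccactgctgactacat
Mrpl42: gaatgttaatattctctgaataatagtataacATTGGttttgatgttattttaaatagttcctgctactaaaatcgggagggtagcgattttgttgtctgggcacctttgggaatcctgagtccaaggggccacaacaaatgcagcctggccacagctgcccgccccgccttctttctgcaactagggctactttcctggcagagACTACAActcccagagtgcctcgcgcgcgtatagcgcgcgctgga
Cox7c: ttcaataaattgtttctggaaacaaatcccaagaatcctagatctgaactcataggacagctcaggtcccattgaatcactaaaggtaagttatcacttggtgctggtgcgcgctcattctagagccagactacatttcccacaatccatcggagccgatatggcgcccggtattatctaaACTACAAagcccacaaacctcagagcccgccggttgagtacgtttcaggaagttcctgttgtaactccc

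Fresh libraries held 8705072, 5852508 and 11553449 reads in peaks and frozen libraries 6620395, 4977508 and 8971343, in the order of the column letters A, B and C. The frozen library of each pair thus had fewer reads than the fresh one, and the part of this depth in the differences was not tested. The median peak had 72 to 177 reads, a counting error of 7.52% to 11.8%. All values below are reads per peak normalized by the authors, and log2 differences are frozen minus fresh of log2(value + 1), with the standard error (SE) of limma. They understate the change of low peaks. Since each library was scaled as a whole, a change of accessibility over all peaks cannot be seen. All 10 hepatocyte marker genes had peaks (100 in total). Of 10 markers each, macrophages had peaks at 2 genes and lymphocytes at 2, with no peak within 1 kb of a start. Endothelial, stellate and bile duct cell markers had peaks at 8, 2 and 7 genes, with 1, 1 and 3 near a start. Of the hepatocyte marker peaks near starts 12 of 16 were higher in frozen liver and 1 lower by the test described next (median log2 difference 0.47), and of all 100 peaks 44 and 11 (0.12). Endothelial markers had 4 higher and 7 lower of 21 peaks (-0.18), bile duct markers 3 and 5 of 15 (-0.07), macrophage markers 0 and 1 of 2 (-0.38), stellate cell markers 1 and 1 of 4 (-0.11) and lymphocyte markers 2 and 1 of 6 (-0.07). Over all peaks of the study 27.9% were higher and 32.5% lower. Near starts these shares were 35.5% and 26.6%, and beyond 1 kb 23.8% and 35.7% (median -0.10). The part of other cell types in the differences of the hepatocyte lists was not tested.

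Most of the peaks differed between frozen and fresh liver, in both directions and mostly by small steps. Whatever else differed between the preparations goes with freezing and cannot be told apart from it. By limma with the pair as a block (Benjamini-Hochberg adjusted p under 0.05, two-sided), 31748 peaks were called, 60.4% of those tested. Of these 14659 (27.9%) were higher in frozen liver and 17089 (32.5%) lower. The median absolute difference of called peaks was 0.51, and 1023 rose and 1824 fell by over 1 (log2). The whole range ran from -2.55 to 2.86. All 3 pairs had the same sign at 31125 of the called peaks (98.0%), which follows largely from calling them on these same pairs. Frozen and fresh libraries did not overlap at 29942 peaks, 57.0% of all. The pair differences of 2 letters correlated across peaks with r from 0.822 to 0.858, and peaks are not independent replicates. The balance between directions depended on scale and on low peaks. Leaving out the lowest 25% of peaks gave 13384 higher and 11245 lower calls. Scaling that equalized the medians of peaks within 1 kb of starts (the near peaks) gave 12522 higher and 19730 lower calls. In pooled nuclei, more open nuclei and more cuts per open nucleus cannot be told apart.

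Among the peaks that rose were promoters of liver and of stress-responsive genes. Upstream of Dusp1, which encodes a phosphatase that switches off MAP kinases, the peak 231 bp before the start (chromosome 17, 26508603 to 26508803) held 149, 145 and 134 reads in fresh and 459, 457 and 435 in frozen libraries. The groups lay far apart, and the peak rose by 1.65 ± 0.08 (adjusted p = 2.71e-18 by limma), or 3.15-fold. At Por, the reductase that feeds electrons to cytochromes P450, the peak 434 bp upstream (chromosome 5, 135688611 to 135688811) held 147, 133 and 143 reads in fresh and 334, 409 and 379 in frozen libraries. No library of either preparation reached into the other, and the log2 difference was 1.40 ± 0.08. The upstream peak of Alb, albumin (chromosome 5, 90460658 to 90460858), went from 123, 87.6 and 121 to 254, 255 and 259 reads. It more than doubled in pair B and also in A and C, with a log2 difference of 1.22 ± 0.10. Nr1d1, a clock repressor, had 81.7, 94.3 and 98.6 reads in fresh against 232, 226 and 228 in frozen libraries at a peak 121 bp inside the gene (chromosome 11, 98775156 to 98775356; 5′ UTR). The frozen values were nearly the same in all 3 mice, and the peak rose by 1.32 ± 0.10. Smarca4, the motor of a chromatin remodeller (chromosome 9, 21615934 to 21616134), rose by 0.99 ± 0.07, from 239, 242 and 227 to 468, 443 and 498 reads. Mdh2, mitochondrial malate dehydrogenase (chromosome 5, 135778510 to 135778710), rose by 0.98 ± 0.06, from 256, 274 and 272 to 509, 562 and 510 reads. In both genes the lowest frozen library stood well above the highest fresh one.

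Peaks that fell steeply lay at starts of genes from several pathways and inside introns. At Zfp418, a zinc finger gene (chromosome 7, 7171190 to 7171390), the promoter held 210, 205 and 202 reads in fresh and 57.2, 52.6 and 62.2 in frozen libraries. It lost most of its reads in every pair, with a log2 difference of -1.83 ± 0.11 (adjusted p = 5.43e-15 by limma), or 3.55-fold lower. At Cep97, a centrosome gene that restrains cilium formation (chromosome 16, 55934775 to 55934975), reads went from 366, 386 and 332 to 113, 82.8 and 112, a log2 difference of -1.82 ± 0.10. Hnf4g, a relative of the hepatocyte factor HNF4A (chromosome 3, 3507882 to 3508082), fell from 193, 179 and 204 to 58.4, 62.1 and 57.0 reads. Its log2 difference was -1.68 ± 0.12. Rad18, an E3 ligase of DNA damage tolerance, had 186, 186 and 166 reads in fresh and 46.5, 38.2 and 46.4 in frozen libraries (chromosome 6, 112696592 to 112696792), and its log2 difference of -2.01 ± 0.13 was below that of Zfp418. Intronic peaks of Trio, a guanine nucleotide exchange factor (chromosome 15, 27910231 to 27910431), and of Klf12, a transcriptional repressor (chromosome 14, 100039985 to 100040185), fell by 1.72 ± 0.12 and 1.62 ± 0.12. Cox7c, a subunit of cytochrome oxidase (chromosome 13, 86046745 to 86046945), fell by 0.94 ± 0.08, from 336, 327 and 323 to 186, 172 and 154 reads.

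**Figure D1:**
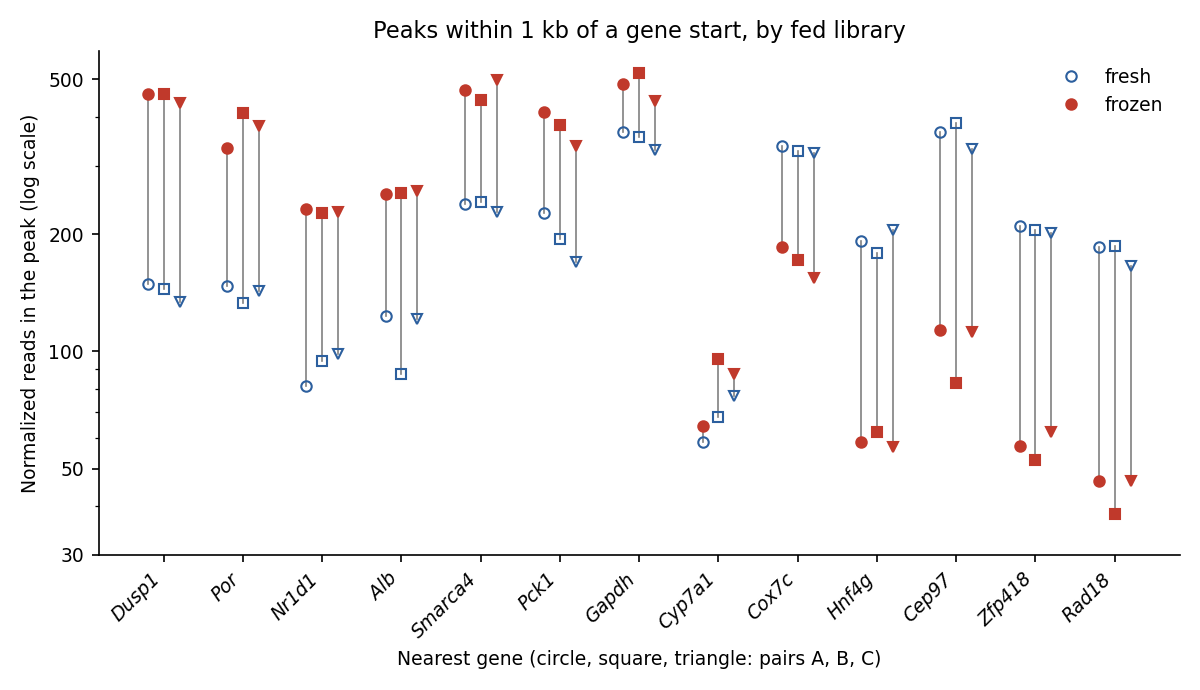
Normalized reads (log scale) in 13 peaks within 1 kb of a gene start, in each fresh (open, blue) and frozen (filled, red) fed library; grey lines join the libraries of a letter. Fresh and frozen libraries are apart for 12 of these peaks, and at Cyp7a1 they overlap.

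The plot of single peaks by library holds mostly peaks that were named for a large called change. Zfp418, Cep97 and Hnf4g were also picked for no overlap between frozen and fresh libraries, so their separation follows from the choice. Of 28 genes chosen as a panel of liver, clock, stress and reference genes, 26 had a peak within 1 kb of their start. At the peak nearest to the start 24 rose and 0 fell, while of all peaks within 1 kb of starts 35.5% rose and 26.6% fell. The reference genes were among those that rose, with 0.57 ± 0.08 at Actb and 0.46 ± 0.06 at Gapdh. At Gapdh the libraries held 367, 356 and 329 reads in fresh and 485, 519 and 441 in frozen tissue, which do not overlap. Cyp7a1, the rate-limiting enzyme of bile acid synthesis, and Dbp, a clock output factor, did not pass at the start (0.27 ± 0.14, adjusted p = 0.0925, and 0.25 ± 0.13, adjusted p = 0.0887, both by limma). At Cyp7a1 the groups overlapped, with 58.6, 67.7 and 76.9 reads in fresh against 64.3, 95.6 and 87.6 in frozen libraries. The start peak of Dbp passed in edgeR and after quantile normalization. Those of Hnf4a at 0.18 ± 0.06 and Fasn at 0.20 ± 0.08 passed, but neither did with scaling to the near peaks, after quantile normalization or without pair A or C.

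Gene groups were read from peaks within 1 kb of gene starts, of which 6580 of 18534 (35.5%) rose and 4939 (26.6%) fell, with a median of 0.06. Lists of hepatocyte function had more higher and fewer lower peaks than this near starts, and smaller differences over all their peaks, which are given after the lists. Of the peaks of secreted liver proteins 35 of 50 rose and 0 fell, with a median of 0.36, among them Rbp4, the retinol carrier, at 1.25 ± 0.14 and Apoc1, an apolipoprotein, at 1.03 ± 0.09. Hepatocyte transcription factors had 40 higher and 5 lower of 58 (median 0.36). Among them Cebpb rose by 0.95 ± 0.13 and the retinoid receptor Rxra by 0.81 ± 0.09, and Hnf4g and another promoter peak of Hnf4a (-0.41 ± 0.09) fell. Genes of the urea cycle and amino acid catabolism had 43 higher and 3 lower of 59 (0.33), with Ass1, an enzyme of the urea cycle, at 0.73 ± 0.06. Cytochrome P450 and xenobiotic genes had 16 and 0 of 24 (0.37), with Cyp2e1 at 0.80 ± 0.08. Cholesterol synthesis had 27 and 0 of 41 (0.25), and lipogenesis 27 and 2 of 40 (0.34). Acute phase genes had 18 higher and 1 lower of 33 (0.37). Orm1 of the acute phase list, a plasma glycoprotein, rose by 1.46 ± 0.10. Gluconeogenesis genes went both ways, with 18 higher and 6 lower of 39 (0.16). Pck1, which commits carbon to glucose, rose by 0.94 ± 0.07 and Crtc2, a CREB coactivator, had a log2 difference of -0.51 ± 0.06. Glycolysis and glycogen genes had 21 and 9 of 42 (0.16), fatty acid oxidation 25 and 4 of 51 (0.21), and bile acid genes 11 and 1 of 27 (0.21). The median of fatty acid oxidation was 0.12 without pair C. After quantile normalization cholesterol synthesis had a median of 0.12 and glycolysis of 0.10.

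Genes of rapid and rhythmic responses also lay high. Circadian clock genes had 35 higher and 1 lower peak of 48, with a median of 0.49. Its values in the 3 pairs differed by an SD of 0.0376. Besides Nr1d1, Nr1d2 rose by 1.17 ± 0.07 and Per1, a light- and hormone-responsive repressor, by 1.14 ± 0.12. Immediate early genes had 30 and 3 of 48 (0.34). Atf3, a stress-induced factor, rose by 1.42 ± 0.11 at one peak near its start, whereas Egr2, a growth factor response gene, fell from 136, 120 and 137 to 36.9, 31.9 and 50.8 reads, a log2 difference of -1.71 ± 0.14. Glucocorticoid receptor targets had 27 and 1 of 45 (0.25), hypoxia genes 24 and 2 of 35 (0.38), and genes of endoplasmic reticulum stress 21 and 5 of 35 (0.29, and 0.16 after quantile normalization), with Atf4 at 1.64 ± 0.15 and Ddit3 at 1.32 ± 0.15. Heat shock chaperones had 16 and 7 of 29 (0.33). Hspd1, the mitochondrial chaperonin, rose by 1.01 ± 0.08 at its start but fell by 0.58 ± 0.10 at a peak 806 bp downstream.

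Housekeeping groups divided. Cytosolic ribosomal protein genes had 56 higher and 8 lower peaks of 94 (median 0.32), with Rpl3 at 1.50 ± 0.10, and chromatin remodelling genes 36 and 6 of 64 (0.33). Respiratory chain subunits had 54 and 16 of 111 (0.16), mitochondrial ribosomal proteins 40 and 21 of 89 (0.14) and proteasome subunits 23 and 14 of 54 (0.07). In the mitochondrial ribosome Mrpl14 rose by 1.36 ± 0.10, while Mrps22 fell by 1.52 ± 0.12 and Mrpl42 by 1.05 ± 0.10. Clustered histone genes, whose close copies can share reads, had 26 and 9 of 54 (0.23) and microRNA genes 63 and 26 of 146 (0.18). Over all 1315 peaks nearest to microRNA genes the balance was the other way, with 356 higher and 420 lower (-0.04). The group furthest on the other side was the numbered zinc finger genes, which encode mostly KRAB repressors in clusters of similar sequence. They had 95 higher and 200 lower peaks of 447, with a median of -0.17. Zfp772 fell by 1.89 ± 0.20 and Zfp27 rose by 1.62 ± 0.17. Genes of DNA repair had 12 higher and 16 lower of 37 (-0.04), with Rad18 among those that fell, and genes of the primary cilium 9 and 14 of 34 (-0.08), with Tmem231, of the ciliary gate, at -1.77 ± 0.12. Of the olfactory and vomeronasal receptors 3 peaks lay near a start, and 1 of them fell. The medians of lists with at least 10 peaks kept their signs with scaling to the near peaks, where that of the proteasome was 0.00, and after quantile normalization. That of DNA repair turned to 0.02 without pair A, and that of the cilium was -0.03 without pair B. With scaling to the near peaks the medians were 0.10 for gluconeogenesis, glycolysis and the respiratory chain, 0.11 for microRNA genes and 0.08 for mitochondrial ribosomal proteins, and -0.11 and -0.15 for DNA repair and the cilium.

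Over all peaks assigned to a list, distal ones included, the medians of the lists of hepatocyte function were lower, against -0.04 for all 52530 peaks. Cholesterol synthesis had 45 higher and 34 lower of 141 (0.04), heat shock chaperones 18 and 15 of 50 (0.06), hypoxia genes 61 and 41 of 152 (0.08) and secreted liver proteins 85 and 36 of 215 (0.10). Clock genes had 73 and 28 of 159 (0.19), genes of the urea cycle and amino acid catabolism 100 and 22 of 204 (0.20), and zinc finger genes 151 and 341 of 773 (-0.20).

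**Figure D2:**
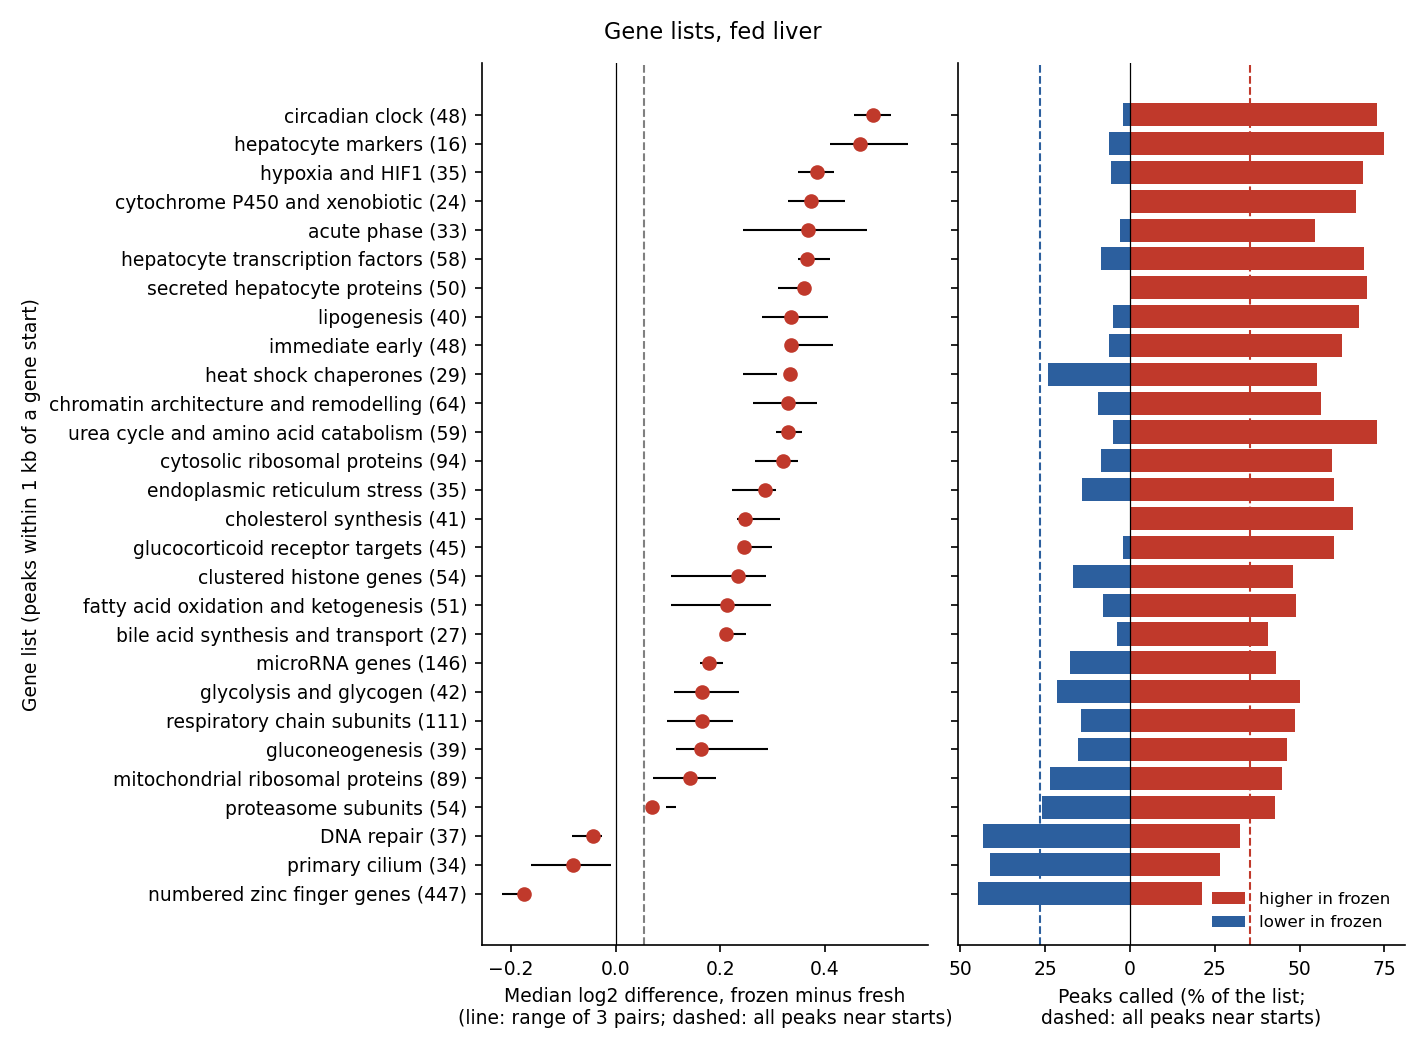
Gene lists with at least 10 peaks within 1 kb of a gene start (number of peaks in brackets). Left, median log2 difference (points) with the range of the 3 pair medians; right, percent of peaks higher (red) and lower (blue) in frozen liver; dashed lines give all peaks near gene starts (median 0.06, 35.5% higher, 26.6% lower).

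In the plot of gene lists the clock genes stand highest and the zinc finger genes lowest. After quantile normalization the acute phase list had a median of 0.46 and the clock genes 0.38. For most lists the 3 pairs span a narrow range beside the distance between the highest and the lowest list. These lists were chosen with earlier results of these data known, and their counts are descriptions.

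Sequence was read for the 4080 peaks that lie whole inside a RefSeq promoter window (250 bases before to 50 after a start), 22.0% of the peaks near gene starts. Of these peaks 40.6% rose and 27.8% fell, with a median of 0.08. Promoters with the NRF1, CRE or E-box letters rose more often, and those with the ZNF143 letters fell more often. The NRF1 letters occurred in 4.93% of these 201-base peaks. Of the 201 peaks with them 137 rose and 16 fell, and their median of 0.42 compares with 0.07 in peaks without them. The CRE, in 3.31% of the peaks, came with 94 higher and 6 lower of 135 (0.40 against 0.07), and the E-box, in 8.06%, with 201 higher and 60 lower of 329 (0.30 against 0.06). Of the 7 promoters shown above, the described peaks of Smarca4 and Alb are among these 4080, and the others reach past the window. The peaks of Dusp1 and Mdh2 hold the CRE printed in their windows, and that of Smarca4 holds 1 of the 2 NRF1 strings. The E-box of Dusp1 lies outside its peak. The ZNF143 letters, in 4.29% of the peaks, came with 37 higher and 107 lower of 175, and a median of -0.30 against 0.09. Their 3 pair medians were -0.24, -0.35 and -0.28. The peaks of Cep97, Mrpl42 and Cox7c hold them. The CCAAT box, in 40.8% of the peaks, had 555 higher and 577 lower of 1665 (-0.01 against 0.15), and peaks with 2 or more of them had 175 higher and 287 lower of 691 (-0.09). The peak of Alb that rose holds 1 of the 2 boxes of its window whole, so a promoter with a CCAAT box could also rise.

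**Figure D3:**
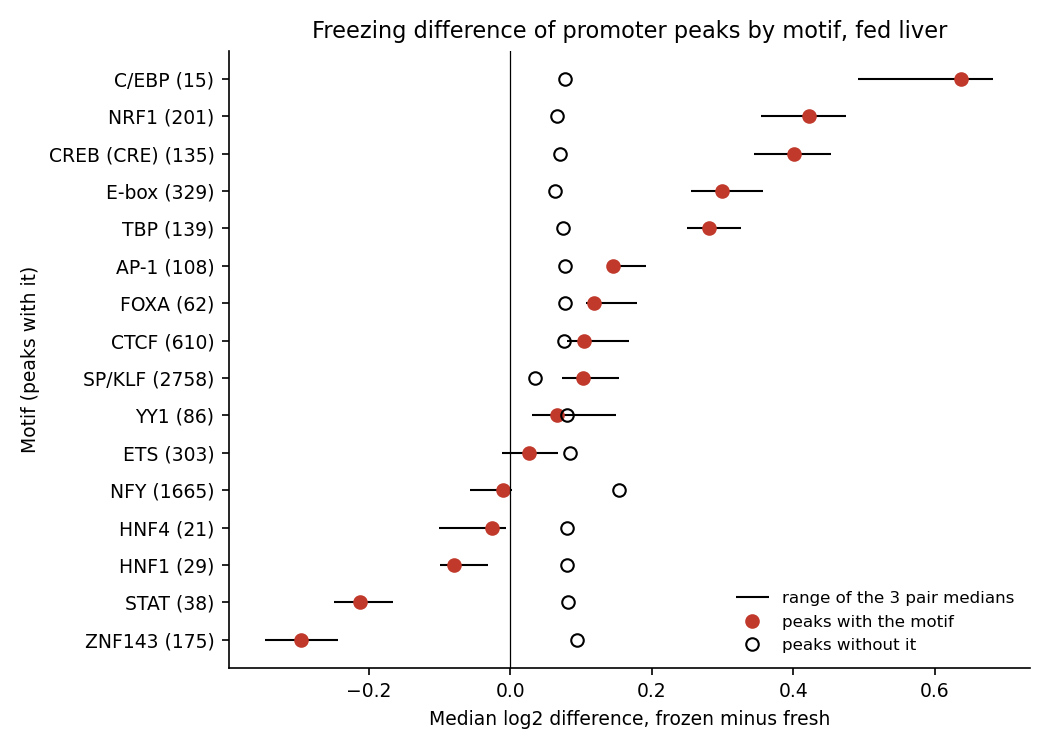
Median log2 difference of promoter peaks with each of 16 motifs (filled; black line, range of the 3 pair medians) and without it (open); numbers of peaks with the motif in brackets. NRF1, CRE and E-box peaks lie between 0.30 and 0.42, and ZNF143 peaks at -0.30.

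Of the motifs in the plot, the NRF1 and ZNF143 letters are also given within classes of base composition. Whether the order of the other motifs holds within these classes is not shown here. Median GC content was 65.2% over all sequenced peaks, 65.7% with NRF1 letters, 64.7% with the CRE and 59.2% with the ZNF143 letters. GC itself went with the difference, from a median of -0.02 in the lowest quintile (up to 57.2% GC) to 0.18 in the highest (from 72.6%). Among peaks with at most the median GC, those with NRF1 letters had a median of 0.43 and those without 0.00. For the ZNF143 letters the values were -0.35 and 0.03, and among peaks of higher GC -0.10 and 0.16. Of the 16 motifs searched, C/EBP (TTGCGCAA, 15 peaks) had the highest median, 0.64, and TATA boxes (TATAAA, 139 peaks) had 0.28. STAT sites (TTCCNGGAA, 38 peaks) had -0.21. For HNF4 (CAAAGTCCA), HNF1 (GTTAATNAT), FOXA (TGTTTAC) and AP-1 (TGANTCA) the medians were -0.03, -0.08, 0.12 and 0.15, over 21, 29, 62 and 108 peaks. That of HNF1 turned to 0.07 without the lowest 25% of peaks. SP/KLF (GGGCGG), CTCF (AGGGGGC), YY1 (AAGATGGCG) and ETS (CCGGAAGT) letters had medians of 0.10, 0.10, 0.07 and 0.03, over 2758, 610, 86 and 303 peaks. Motifs were matched as exact letters on both strands, and a match does not show that a factor was bound. Peaks with a variant of the letters were counted among those without the motif. Peaks away from gene starts were not read for motifs.

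Whether a peak stood alone or among others went with the direction. Peaks beyond 1 kb of a start with no other peak within 1 kb numbered 21855. Of these 16.6% rose and 44.3% fell, with a median of -0.21. With 3 or more other peaks within 1 kb, 50.3% of 761 rose and 8.15% fell (0.25). Near gene starts the same order held, from 24.5% higher and 41.0% lower among 5521 lone peaks (-0.12) to 58.2% higher and 7.89% lower among 1672 peaks with 3 or more others (0.30). These medians kept their signs with scaling to the near peaks and after quantile normalization. The median of distal peaks with 1 other peak, 0.04, turned to -0.03 with scaling to the near peaks. Median fresh reads were 99.5 for lone distal peaks and 111 for those with 3 or more others, and 172 and 141 near starts. The promoters of Zfp418, Hnf4g, Rad18 and Tmem231 had no other peak within 1 kb. Windows are 200 bp, so near neighbours share the same open stretch and are not independent. This grouping was chosen after the values were seen.

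Lone and crowded peaks were also looked at apart. Among lone peaks near starts, those of cytosolic ribosomal protein genes had a median of 0.36 (51 peaks) and those of zinc finger genes -0.41 (158), against -0.12 over all. Peaks with others nearby had 0.28 and -0.08, against 0.12. Clock genes were crowded, with other peaks within 1 kb of 85.4% of their peaks, against 70.2% of all peaks near starts. The median of their 41 crowded peaks was 0.52 and of their 7 lone peaks 0.16. Among the lists of hepatocyte function the crowded share ran from 54.2% (cytochrome P450) to 92.2% (fatty acid oxidation). All of these lists but cytochrome P450 were above the 70.2% of all peaks near starts. Some values lay close to those of all peaks of their kind, such as the proteasome among lone peaks (-0.11) and glycolysis among crowded ones (0.11). Others lay apart from them in either direction. Among crowded peaks, hepatocyte transcription factors had 0.41 (49 peaks), cytochrome P450 genes 0.51 (13), the proteasome 0.26 (31) and DNA repair -0.04 (25). The 9 lone peaks of glycolysis had 0.40. For the NRF1 letters, lone peaks had 0.26 with and -0.08 without them, and for the ZNF143 letters -0.38 and -0.05.

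**Figure D4:**
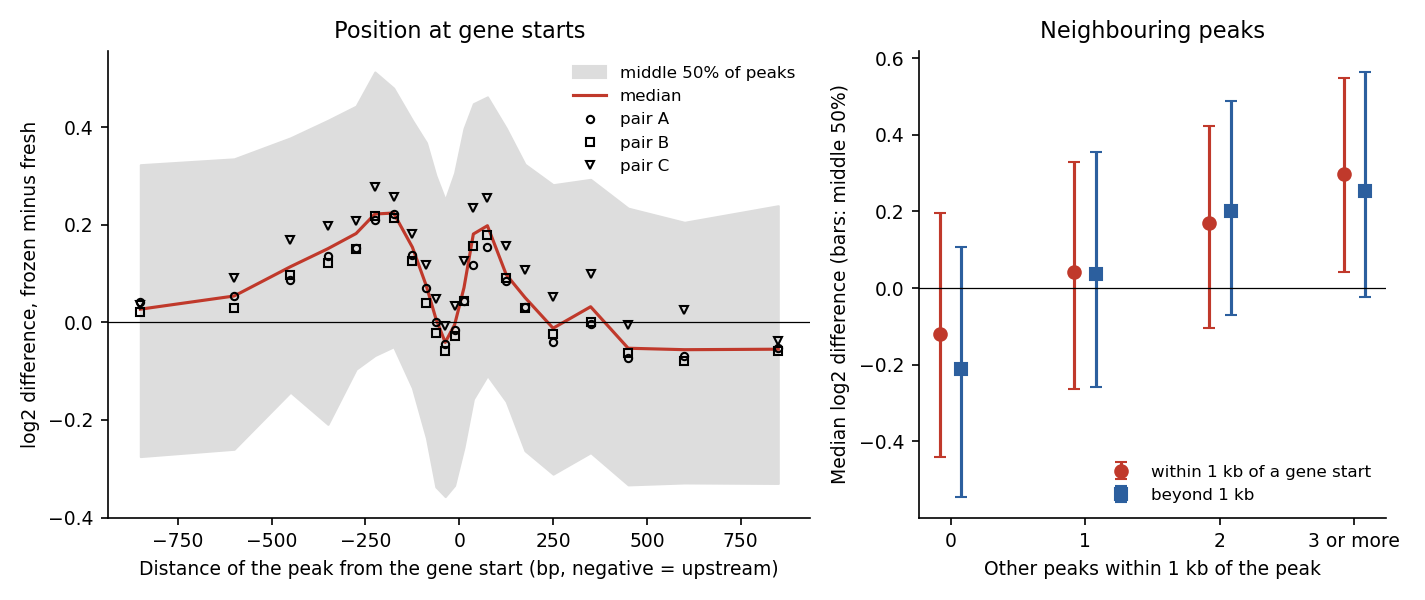
Left, median log2 difference of peaks by distance from the gene start in bp (line; grey, middle 50% of peaks; symbols, pairs A, B and C). Right, median and middle 50% by the number of other peaks within 1 kb, near gene starts (circles) and beyond 1 kb (squares); medians run from -0.12 to 0.30 near starts and from -0.21 to 0.25 beyond.

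Along gene starts the difference had 2 crests, as the plot of distance from the start shows. Peaks 200 to 150 bp upstream had a median of 0.22 (53.7% higher, 14.8% lower of 609). Those 50 to 25 bp upstream, where the general transcription factors assemble, had -0.04 (29.0% and 36.0% of 1946). Peaks 50 to 100 bp downstream had 0.20, and 500 to 700 bp downstream -0.06. Within single promoters this dip was not seen. At the 761 starts that had both a peak within 75 bp upstream and one 150 to 500 bp upstream, the first had a median of 0.22 and the second of 0.17. Start peaks with another peak within 1 kb had a median of 0.10 and those without -0.16. By annotation, promoters had a median of 0.08, 5′ UTR peaks 0.03, intergenic peaks -0.02, transcript ends -0.06, exons -0.09, 3′ UTR peaks -0.11 and introns -0.14. The intergenic median turned to 0.06 without the lowest 25% of peaks and to 0.03 after quantile normalization. Among introns 4132 of 20078 peaks rose and 7784 fell. Peaks near starts held 44.6% ± 0.19 (SD, n = 3) of the reads in fresh and 46.4% ± 0.78 in frozen libraries. The share was higher in frozen tissue in all 3 pairs, by 1.77 points ± 0.82 on average (exact sign-flip permutation test, two-sided p = 0.25, the smallest that 3 pairs allow). Peaks on chromosome 19 had the highest median of any chromosome, 0.14, and those on chromosomes 2, 3 and X the lowest, -0.13 each.

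Low peaks had negative and high peaks positive medians. In the lowest decile of peaks by mean reads the median was -0.32 near starts and -0.50 beyond, and in the highest decile 0.16 and 0.19. After quantile normalization, which gives all libraries the same spread, the lowest decile near starts turned to 0.04 and the highest had 0.01. The spread of log2 values over peaks was 0.875, 0.903 and 0.830 (SD over peaks) in fresh and 1.02, 1.04 and 1.01 in frozen libraries. It was wider in frozen tissue in all 3 pairs, by 0.154 ± 0.0238 (exact sign-flip permutation test, two-sided p = 0.25), and by 0.0791 without the lowest 25% of peaks. The part of this wider spread in the changes of gene groups was not tested, beside the signs under quantile normalization given above.

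**Figure D5:**
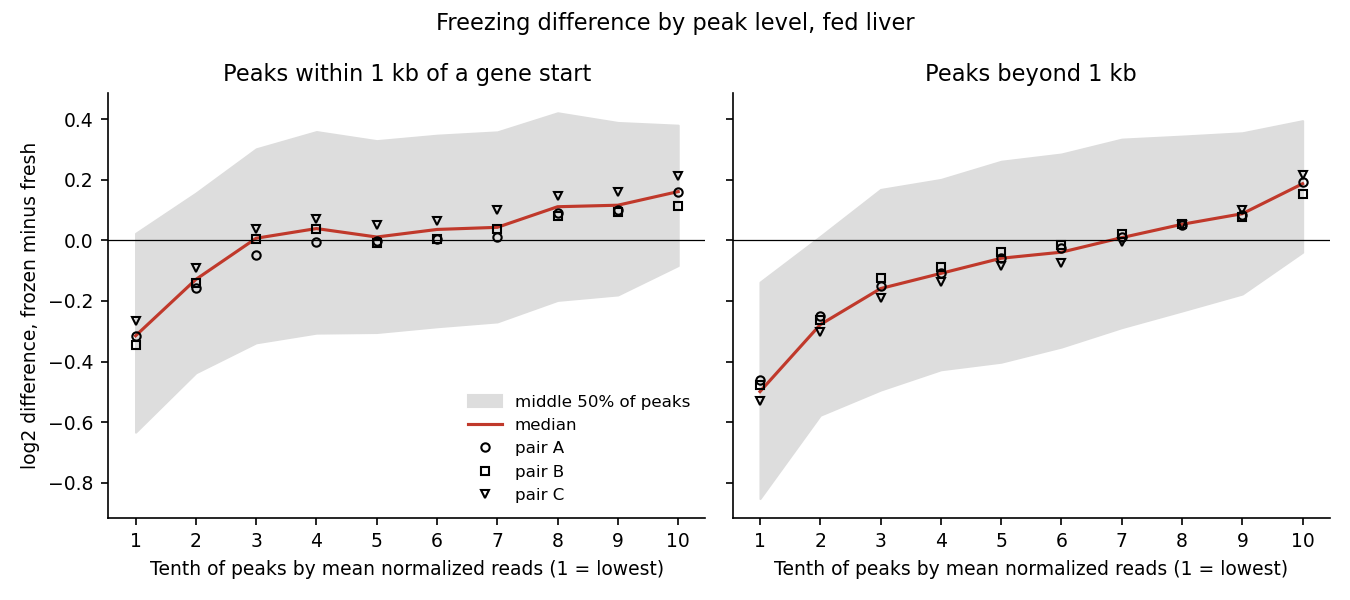
Median log2 difference (red line) by decile of peaks in mean normalized reads, for peaks within 1 kb of a gene start (left) and beyond (right); grey, middle 50% of peaks, symbols, pairs A, B and C. Medians rise from -0.32 to 0.16 near starts and from -0.50 to 0.19 beyond.

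The plot by peak level also shows that the 3 pairs followed one course. Near starts most of the drop lay in the lowest 2 deciles. Beyond 1 kb the median fell at every step from the highest decile down, and was already -0.16 in decile 3. Mean reads include the frozen libraries, so level and difference are not independent.

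Of 15001 nearest genes 12667 had a called peak, and 3581 had both higher and lower ones. Among the 934 genes with 10 or more peaks 809 (86.6%) had both, 90 had higher calls only and 35 lower calls only. With 27.9% of all peaks higher and 32.5% lower, a gene with many peaks will often hold both, and nothing about loci is read from this count. The genes with the highest shares, which were chosen after their values were seen, were these. Lrrc4c had 10 higher peaks of 10 and Zfp36l1, an mRNA decay factor, 12 of 13. Apoa5, an activator of triglyceride clearance, Cbs, of homocysteine metabolism, and Dusp1 had 9 of 10 each, and Cpt1a, which admits fatty acids to mitochondria, 9 of 11. None of these had a lower peak. On the lower side Ndfip2, an adaptor of NEDD4 ligases, had 10 lower peaks of 11, Cdh26, a cadherin gene, 9 of 10 and B930095G15Rik 9 of 11, with no higher peak. Pdzrn3, a ubiquitin ligase gene, had 11 lower and 1 higher of 14.

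Repeats of ribosomal RNA and satellite DNA had the highest medians of the repeat classes. Of 23 peaks in rRNA repeats 22 rose and 1 fell, with a median of 1.60 ± 0.45 (SD of the 3 pair medians), and of 26 in satellites 22 rose and 3 fell (0.96 ± 0.47). An LSU rRNA repeat in an intron nearest to Txndc11 (chromosome 16, 11144009 to 11144209) went from 67.5, 35.9 and 48.6 to 287, 374 and 439 reads, a log2 difference of 2.86 ± 0.14. At Rn45s, the 45S precursor gene, which was chosen after its values were seen, 1 of 3 peaks had 552, 389 and 396 reads in fresh and 1422, 1738 and 1598 in frozen libraries (chromosome 17, 39844045 to 39844245). It was the strongest peak of each of the 3 frozen fed libraries. All rRNA peaks together held 0.0396% ± 0.0071 (SD, n = 3) of reads in fresh and 0.121% ± 0.0127 in frozen libraries, and satellites 0.0420% ± 0.0225 and 0.0805% ± 0.0154. Of 55 tRNA repeat peaks 27 rose and 1 fell (0.26), while ERVK retroviral repeats (-0.21, 695 peaks), B2 elements (-0.18, 328) and L2 elements (-0.20, 232) lay below the -0.10 of all distal peaks. Such sequences exist in many copies, and the sources used here do not say how reads with several matches were placed.

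The freezing difference in fasted mice, from 6 other libraries, resembled that in fed mice. Across peaks the log2 differences of the 2 feeding states had r = 0.899. For fasted mice 32384 peaks were called, in a fit of all 12 libraries, so the fed libraries share in its error estimate. The fed calls came from the 6 fed libraries alone. Higher in both were 12322 peaks and lower in both 13653, together 81.8% of the fed and 80.2% of the fasted calls, and 86 were called in opposite directions. The difference itself, tested as an interaction by limma with the pair as a block, passed at 395 peaks (0.752%), of which 208 were higher in fed liver and 187 lower. Without the replicate block 0 passed by limma, with 2702 peaks at an unadjusted p under 0.05. Of the 23 rRNA repeat peaks 15 were among the 395, and their class median was 1.60 in fed and 2.43 in fasted liver. The classes by position had much the same values, with medians of 0.06 for peaks near starts in both feeding states and -0.14 and -0.15 for introns.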

How the data were processed

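The authors deposited 1 table of signal, normalized reads per peak over a merged peak set, with HOMER-style annotation in the file's columns. HOMER, DESeq2, SAMtools and BWA 0.7.5a-r405, and the build mm10, are listed without roles in the submitters' processing notes. Per the labels, 25000 nuclei were transposed for 30 min at 37 °C and libraries amplified for 12 cycles. Peak calling is not described in the sources used here. Groups came from the column names, and 0 columns of samples were left unused.

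In each library the values were whole multiples of 1 step (tolerance 1e-06), which gave reads per peak for the depths and for edgeR. Peaks were tested with limma 3.58.1 (R 4.3.3) on log2(value + 1) over all 52530 peaks, with a trended prior, the column letter as a block and Benjamini-Hochberg adjustment at 0.05. Deviations from group means correlated within a letter (0.377, 0.329 and 0.454) and not between letters (at most -0.0955), and the titles give both libraries of a mouse. Replicates are mice, and the 2 libraries of a pair share a liver. In simulated reads, limma found 20%, 78%, 100% and 100% of fed changes of 1.25, 1.5, 2 and 3-fold among 200 changed peaks, with 6 false calls. For the interaction it found 4%, 44%, 94% and 98%, with 5 false calls. These simulations changed only 200 of 52530 peaks and held no differences between mice. In the fed data 31748 peaks were called, and the power of the real comparisons was not tested. Alternatives were no block, pseudocount 5, no lowest 25% of peaks, scaling to peaks within 1000 bp of starts, quantile normalization, all 12 libraries, edgeR 4.0.16 and each pair left out. Summaries used Python 3.11.15, pandas 2.3.3 and scipy 1.17.1.

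Peaks named are the 8 largest called changes in each direction above the median level and with no overlap between frozen and fresh libraries. Also named are up to 3 genes in each direction per list, a panel of 28 genes, the extremes of repeat classes, and those said to be chosen after their values were seen. The 28 gene lists and the rule were chosen with earlier results of these data known.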

Additional observations from a re-analysis of the deposited data

Results flagged for a closer look

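The freezing difference differed between fed and fasted liver at 395 peaks by limma's interaction test with the pair as a block (adjusted p under 0.05), and at 0 without the replicate block. The 6 largest differences in each direction are given here as fed minus fasted log2 freezing differences, chosen after their values were seen. At Acot7, a thioesterase gene, the difference was 1.24, with -0.37 in fed and -1.61 in fasted liver. Fzd1, a Wnt receptor gene, had 1.24 (-0.20 and -1.44), Gm13547 1.21 (-0.37 and -1.57), Pex14 1.20 (0.33 and -0.88), Aqp8 1.17 (-0.27 and -1.44) and Shcbp1 1.13 (-0.10 and -1.23). The fed value was negative at all of these peaks but Pex14.

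In the other direction Hmgcs1, an enzyme of cholesterol synthesis, had -1.12, with -1.17 in fed and -0.05 in fasted liver. The values were -1.14 for 4930539N22Rik (-0.66 and 0.47), -1.04 for Prrg4 (-0.64 and 0.40), -0.98 for Sel1l3 (-0.68 and 0.31) and -0.98 for Acot1 (-0.91 and 0.07). The rRNA repeat nearest to Txndc11 (start 11144154) had -1.09, rising by 1.33 in fed and 2.43 in fasted liver. Peaks with a higher difference in fed liver had more fresh reads in fed than in fasted mice (medians 203 and 153), and those with a lower difference fewer (155 and 198). The part of these fresh levels in the interaction was not tested.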

How the results depend on the processing

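Calls numbered 26260 without the replicate block (12367 higher, 13893 lower), 31803 with pseudocount 5, 30758 after quantile normalization and 32613 in edgeR, and 26664 to 29612 without a pair (12528 to 13817 higher, 14136 to 15795 lower). Without the lowest 25% of peaks 11245 fell and 13384 rose, against 17089 and 14659 with them. In the lowest decile of peaks 53.7% fell and 5.81% rose. The share of calls that were higher went from 46.2% to 54.3% without the lowest 25% of peaks. It was 38.8% with scaling to the near peaks, which moved the median of all peaks from -0.04 to -0.11. The interaction gave 0 calls without the replicate block and 535 without the lowest 25% of peaks. The share of reads near starts was 1.30 to 2.07 points higher in frozen liver, and the spread 0.140 to 0.163 wider, without a pair. These signs turned, and the cause was not tested: without the lowest 25% of peaks the medians of all peaks (0.031), intergenic peaks (0.055) and HNF1 letters (0.068), after quantile normalization those of intergenic peaks (0.032) and the lowest decile near starts (0.043), and with scaling to the near peaks that of distal peaks with 1 other peak (-0.029). Among 234 named peaks no sign turned, but without the lowest 25% of peaks only 173 of them have a value. Of the 234, the call was lost at 16 after quantile normalization, 8 without the replicate block and up to 13 without a pair. Alternatives for medians beyond scaling and the low filter were chosen after seeing the data. At 72 to 177 reads in the median peak, changes of 1.25-fold were mostly missed in simulated data with 200 changed peaks. How often they were missed in the real data was not tested.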
